A study of Ovis aries with 18 samples.

Results

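MicroRNAs (miRNAs) of the imprinted DLK1-DIO3 region, other than those antisense to the gene PEG11 (also called RTL1), were followed in the plasma of Polish Longwool ewes. The members were all features whose sheep miRNA name carried 1 of 41 numbers assigned to this region, with any letter or arm suffix. Of these numbers, 30 were found, and they gave 52 of the 364 features in the count table. The 52 members came from 37 hairpins, the folded precursors from which mature miRNAs are cut. In RefSeq's annotation of the ARS-UI_Ramb_v3.0 assembly, all 52 matched a miRNA gene by name, and the 37 genes lay on 1 chromosome.

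The DLK1-DIO3 region is expressed by parent of origin. Its protein-coding genes DLK1, RTL1 and DIO3 are read from the paternal chromosome, and the long non-coding RNAs and the large miRNA clusters from the maternal one. In sheep the region is known for callipyge, a mutation that gives muscular hindquarters when it is inherited from the sire. In adult mammals these miRNAs are best known from brain, and also from muscle and placenta. Each hairpin can yield a mature miRNA from its 5′ side (5p) and 1 from its 3′ side (3p), and the arm that is retained guides the silencing of messenger RNAs.

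Every ewe was female, ovariectomized and carried an estradiol implant, so these features were shared by all groups. Of 12 ewes, 6 received a standard diet (CTRL) and 6 a high-fat diet (OBESE), and blood was drawn at weeks 7, 10 and 14. Plasma RNA gave 18 small RNA libraries, 3 for each of the 6 groups of diet and week. Whether a library came from 1 ewe or several, and whether a replicate number marks the same ewes at each week, is not in the labels. The p-values measure only how far these libraries scatter, which may be technical. Plasma holds RNA released by many tissues, so a lower release by each cell and fewer releasing cells cannot be told apart.

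Library totals ran from 388574 to 1269829 counts. A count of 0 allowed up to 3 counts, which was 7.72 CPM (counts per 1e+06 of the total) in the smallest library and 2.36 CPM in the largest, for counting error only. Of 5 names of neuron-enriched miRNAs, 0 had a feature in the table. A feature was also found for only 3 of 7 red blood cell names, 3 of 5 platelet names and 1 of 3 liver names. A missing name thus cannot show that a tissue released no miRNA. The 3 listed red blood cell miRNAs (miR-16b, miR-106b and miR-25) were summed in CPM on totals scaled by TMM (trimmed mean of M values) factors. On that scale they lay between 397363 and 828880 CPM in CTRL and between 359332 and 578808 CPM in OBESE libraries. These sums are not shares of a library, as a low factor raises them. The part of blood cell RNA in the results was not tested. The lowest TMM factors were 0.653 in CTRL week 7 replicate 1 and 0.718 in CTRL week 14 replicate 3.

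The members were a small part of the plasma miRNAs, and 1 of them held most of their counts. Over the 18 libraries the members summed to 16200 counts. miR-382-5p held 10392 of these, or 64.1%, and ranked 50th of the 364 features. It was followed by miR-409-3p with 12.3%, miR-485-5p with 4.38% and miR-323c with 3.06%. These 4 together held 83.9% of member counts, and the leading 10 held 93.0%. The other 6 of the leading 10 were miR-493-3p with 360 counts, miR-411a-5p with 349, miR-369-5p with 210, miR-376c-3p with 209, miR-494-3p with 193 and miR-323a-3p with 156. Counts of different miRNAs also depend on how well each is ligated and assigned, so their order is an order of counts.

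miR-382-5p dominated in every library. Its share of member counts was between 56.5% and 67.6%, with a mean of 63.7% ± 2.71 (SD, n = 9) in CTRL and 63.9% ± 4.16 (SD, n = 9) in OBESE libraries. Member genes close in order differed widely in counts. Only the 37 member genes were put in order, so genes without a feature may lie between them. Next after MIR382 in that order, MIR134 gave 16 counts of miR-134-5p, a miRNA known for its role in dendritic spines. MIR485, 3 places after MIR382, gave 709 counts of miR-485-5p. MIR3959, the member gene before MIR382 in the order, gave 69 counts of miR-3959-5p.

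Detection was broad in names and thin in counts. At least 1 count was seen for 9 members in all 18 libraries, for 14 members in 10 to 17, for 18 members in 2 to 9 and for 11 members in 1 library. miR-382-5p, miR-409-3p and miR-485-5p were the 3 members with 10 or more counts in all 18 libraries. In contrast, 33 members never reached 10 counts in a library. Every feature in the table had at least 1 count in total, so a number from the rule with no row cannot be told from one with 0 counts.

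**Figure D1:**
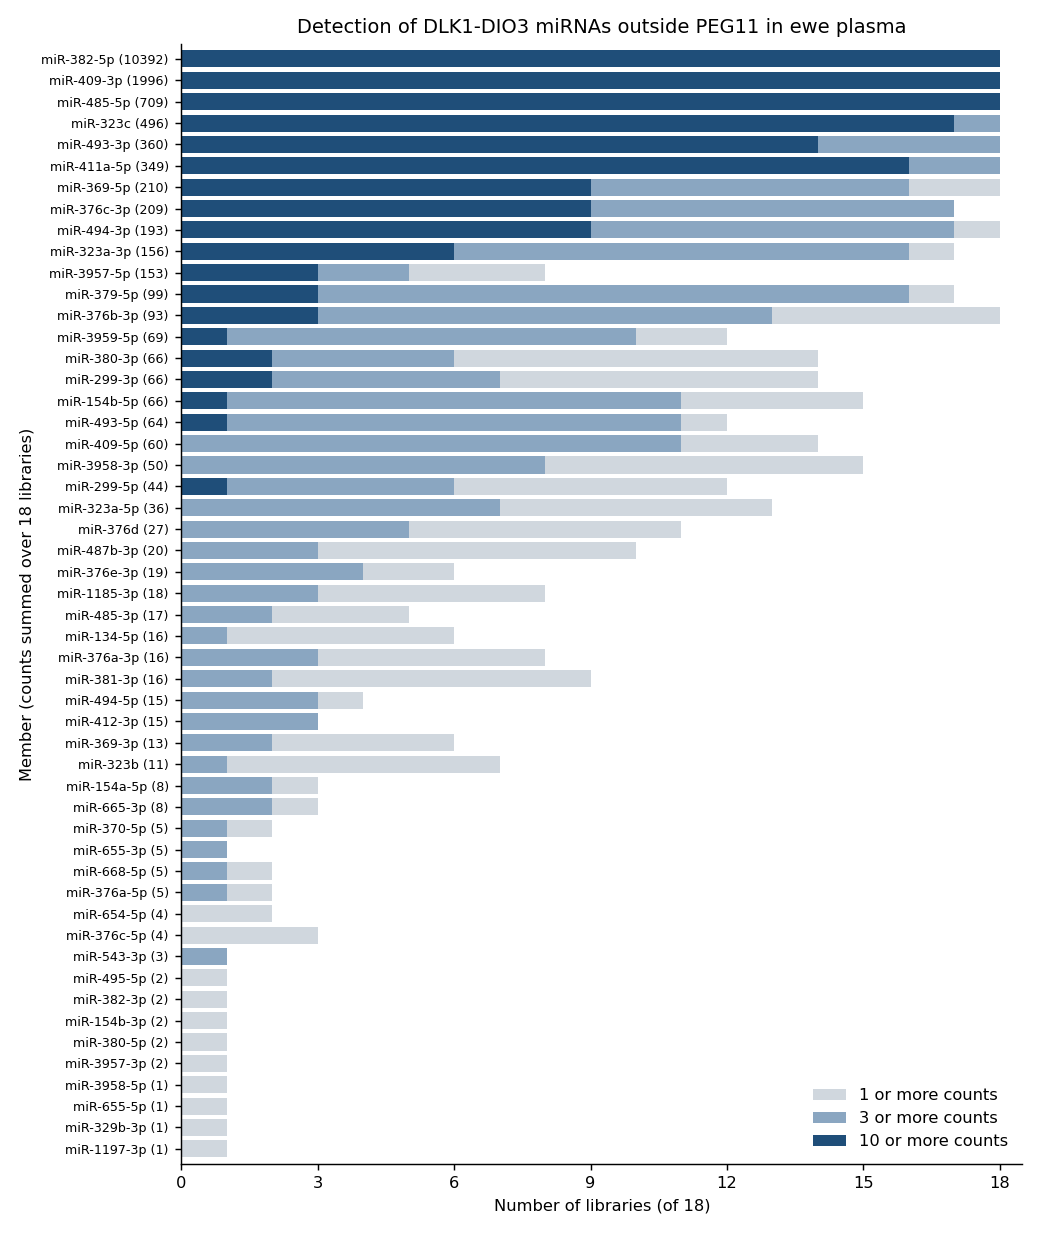
Number of libraries, of 18, in which each of the 52 members had at least 1, 3 or 10 counts (horizontal axis), with the total counts in parentheses. The bars of the 3 leading members are dark along their whole length, and 33 members have no dark segment.

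A library held between 16 and 33 of the 52 members. The mean was 23.4 ± 3.88 (SD, n = 9) in CTRL and 26.9 ± 2.98 (SD, n = 9) in OBESE libraries. At the smallest library total the expected numbers were 20.9 ± 3.22 and 23.9 ± 3.97 (SD, n = 9 each). Both diets ranged widely and overlapped at either depth. The lowest number, 16, was in CTRL week 7 replicate 3, and the highest, 33, in OBESE week 7 replicate 3.

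The members' summed share of a library was 0.102% ± 0.0253 (SD, n = 9) in CTRL and 0.149% ± 0.0570 (SD, n = 9) in OBESE libraries. The lowest share was 0.0577%, in CTRL week 14 replicate 3, and the highest was 0.268%, in OBESE week 14 replicate 3. The 3 OBESE replicate 3 libraries held 0.189%, 0.183% and 0.268% at weeks 7, 10 and 14, the highest shares of the series when counts are divided by the library total. The other OBESE libraries lay between 0.0905% and 0.164%, and the CTRL libraries between 0.0577% and 0.139%, so apart from those 3 libraries the diets overlapped. With TMM scaling the summed levels were 1091 ± 340.5 CPM in CTRL and 1411 ± 580.04 CPM in OBESE (SD, n = 9 each). On that scale CTRL week 7 replicate 1, at 1867 CPM, lay above OBESE week 10 replicate 3, at 1658 CPM. Sums over the members were not tested.

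Most hairpins used 1 arm. Both arms were listed for 15 member hairpins, 19 had 1 arm (9 of them 5p and 10 of them 3p), and 3 had no arm in the name (miR-323b, miR-323c and miR-376d). Of the 15, 14 had 20 or more counts. The 5p arm led in 5 of the 14 and the 3p arm in 9, and the leading arm held 90% or more in 10. Among these 14 hairpins, 1 pair adjacent in the order of member genes had opposite leading arms. miR-3957 was 98.7% 5p, mostly from counts of 2 libraries, and miR-409 was 2.92% 5p.

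The miR-382 hairpin gave 10392 counts of its 5p and 2 of its 3p arm, 99.98% 5p. The miR-485 hairpin gave 709 counts of 5p and 17 of 3p, 97.7% 5p with an exact (Clopper-Pearson) 95% interval from 96.3% to 98.6%. The miR-409 hairpin was the mirror image, with 60 counts of 5p and 1996 of 3p, 2.92% 5p with an interval from 2.23% to 3.74%. For each of these 3 the same arm led in all 18 libraries.

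A few hairpins kept both arms. miR-299 had 44 counts of 5p and 66 of 3p, 40% 5p with an interval from 30.8% to 49.8%, and its 3p arm was the higher in 7 of the 15 libraries with a count. miR-323a was 18.8% 5p (36 against 156 counts), and miR-493 was 15.1% 5p (64 against 360). miR-494 was 7.21% 5p (15 against 193). The miR-369 hairpin used the 5p arm for 94.2% of its counts (210 against 13), although its 3p arm is the better known product, described as binding AU-rich sequences of cytokine messages. The depth of miR-376a (5 against 16 counts) left an interval from 8.22% to 47.2%.

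**Figure D2:**
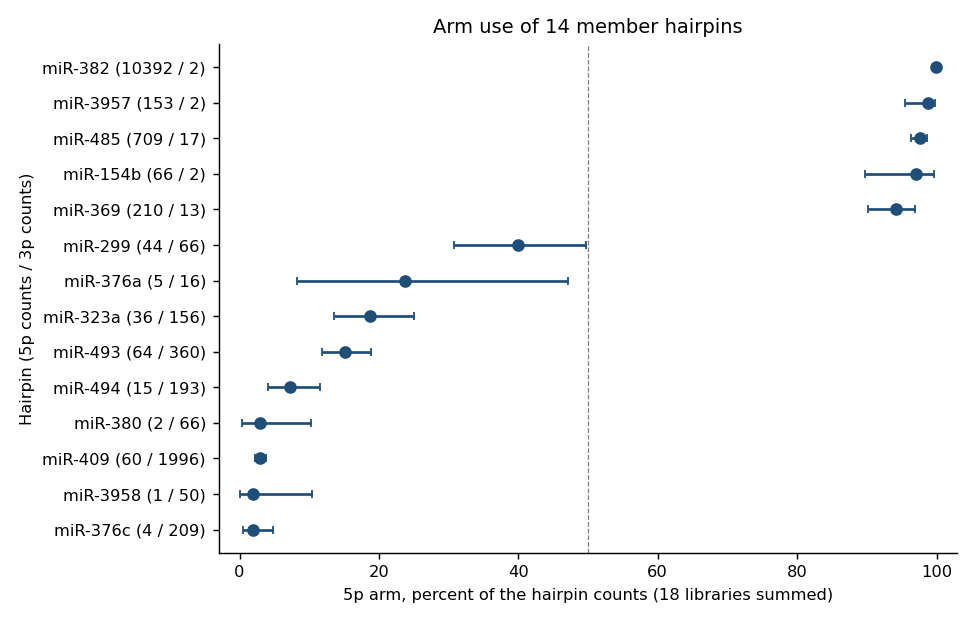
Share of the 5p arm in the counts of each of 14 member hairpins, in percent, summed over the 18 libraries, with exact 95% intervals and the 5p and 3p counts in parentheses. The hairpins fall at either end of the axis except miR-299, miR-376a, miR-323a and miR-493.

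Arm use was compared between diets for the hairpins with at least 10 counts in every library, which were miR-382, miR-409 and miR-485 among the members. The 5p share of miR-409 was 1.91% ± 2.05 (SD, n = 9) in CTRL and 3.29% ± 1.39 (SD, n = 9) in OBESE libraries. By an exact two-sided permutation of diet labels within weeks (8000 assignments) p was 0.0875, and 0.175 after Benjamini-Hochberg adjustment over the 4 hairpins of the table. No 5p count was seen in 4 of the CTRL libraries, whereas each OBESE library had at least 1. Without CTRL week 10 replicate 1, whose 5.56% (3 of 54 counts) was the highest share, the adjusted permutation p was 0.037. Without each of the other libraries it lay between 0.108 and 0.432. The permutation treats the weeks as separate libraries. If a replicate number marked the same ewes, only 3 sets against 3 could be exchanged, and the smallest p would be 0.1. For miR-485 the shares were 97.1% ± 5.71 and 97.9% ± 4.99 (SD, n = 9 each; permutation p = 0.58), and for miR-382 the 2 counts of 3p gave a permutation p of 1.0.

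For the levels, 12 members had enough counts to be tested, and the other 40, with 5.46% of member counts, were not. These 12 passed a filter on low counts that kept 168 features in all. Levels are CPM on TMM-scaled totals, given for replicates 1, 2 and 3 in turn. miR-382-5p at week 7 was at 1195, 682 and 600.4 CPM in CTRL replicates 1 to 3 and at 635, 553 and 1425 CPM in OBESE. At week 10 it was at 861, 584 and 477 CPM in CTRL and at 542, 574 and 1121 CPM in OBESE. At week 14 it was at 598, 807 and 479 CPM in CTRL and at 924, 774 and 1689 CPM in OBESE. Replicate 3 was the highest OBESE library at each week, and the diets overlapped at each week.

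miR-409-3p at week 7 was at 118, 117 and 153 CPM in CTRL and at 146, 119.8 and 235 CPM in OBESE. At week 10 it was at 122, 151 and 105 CPM in CTRL and at 161, 122 and 218 CPM in OBESE. At week 14 it was at 83.8, 113 and 139.6 CPM in CTRL and at 173, 110.4 and 286 CPM in OBESE. Here too replicate 3 was the highest OBESE library at each week, and the diets overlapped.

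miR-323c, a member of the miR-323 group at the far end of the gene order, was at 60.2, 27.9 and 13.9 CPM in CTRL and at 40.8, 57.6 and 88.7 CPM in OBESE at week 7. At week 10 it was at 23.8, 16.6 and 11.1 CPM in CTRL and at 29.7, 25.3 and 40.6 CPM in OBESE. At week 14 it was at 12.0, 45.8 and 14.2 CPM in CTRL and at 36.2, 53.6 and 104 CPM in OBESE. The diets did not overlap at week 10 and overlapped at weeks 7 and 14.

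miR-485-5p, described in neurons as a regulator of synaptic proteins, had a different course. At week 7 it was at 81.1, 101 and 55.6 CPM in CTRL and at 31.6, 36.4 and 57.2 CPM in OBESE. At week 10 it was at 78.7, 25.6 and 56.1 CPM in CTRL and at 34.1, 43.0 and 54.1 CPM in OBESE. At week 14 it was at 38.3, 49.2 and 29.9 CPM in CTRL and at 64.1, 66.6 and 90.2 CPM in OBESE. CTRL had the higher mean at week 7 and OBESE at week 14, where the diets did not overlap.

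The less abundant tested members scattered more. miR-493-3p ranged from 5.54 to 90.3 CPM over the CTRL libraries and from 9.20 to 57.6 CPM over the OBESE libraries. miR-411a-5p ranged from 13.2 to 71.8 CPM in CTRL and from 8.12 to 55.7 CPM in OBESE. miR-323a-3p ranged from 0 to 51.0 CPM in CTRL and from 4.55 to 42.2 CPM in OBESE. The highest CTRL value of all 3 was in week 7 replicate 1, the library with the lowest TMM factor.

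miR-369-5p ranged from 6.95 to 36.6 CPM in CTRL and from 3.03 to 21.5 CPM in OBESE. miR-376c-3p, of the miR-376 family, whose precursors are known to be edited from adenosine to inosine, ranged from 0 to 25.2 CPM in CTRL and from 4.06 to 25.7 CPM in OBESE. miR-494-3p ranged from 5.54 to 25.6 CPM in CTRL and from 3.25 to 27.3 CPM in OBESE. miR-376b-3p ranged from 0.791 to 25.5 CPM in CTRL and from 1.31 to 9.64 CPM in OBESE. The diets overlapped for each of these 4 members.

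**Figure D3:**
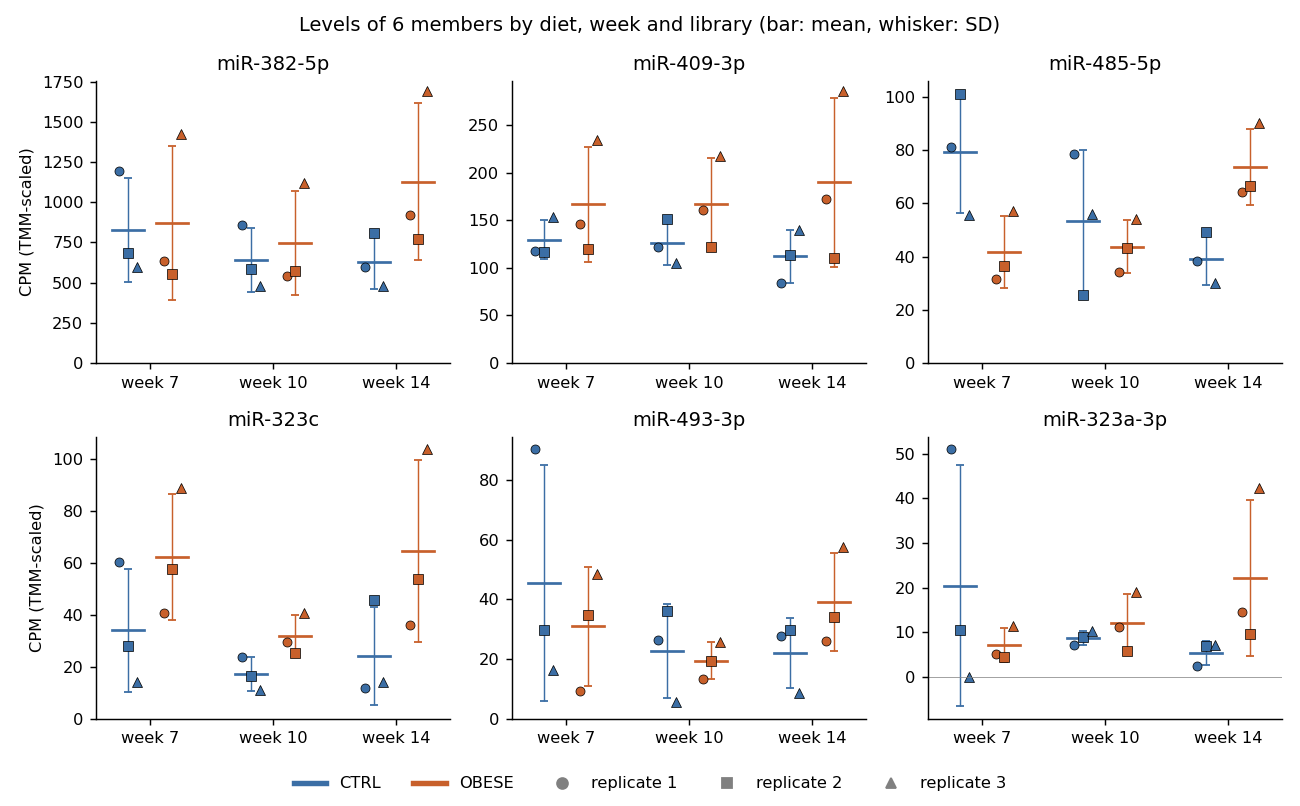
Level of 6 members in CPM scaled by TMM (vertical axes, each starting near 0) by week and diet, with 1 point per library, shapes for replicate numbers, bars for means and whiskers for SDs (n = 3). The triangle, replicate 3, is the highest OBESE point in every panel at every week. The 6 panels are the only ones of the 12 tested members for which this held. For miR-485-5p the diets change order between weeks 7 and 14.

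No member differed between diets at an adjusted p under 0.05 when the 3 weeks were averaged. The test was edgeR's quasi-likelihood test on counts, adjusted over the 168 features by Benjamini-Hochberg, and it called 0.0% of all features. It treats libraries of different weeks as separate. If a replicate number marked the same ewes, the SEs and p-values of this average could be too small. It gave an unadjusted p under 0.05 to 2 of the 12 members, both higher in OBESE, against 11.3% of all features. For miR-323c the log2 ratio of OBESE over CTRL was 1.07 ± 0.352 (SE), from a mean of 25.1 CPM to 52.9 CPM, with an edgeR adjusted p of 0.202. miR-409-3p had 0.51 ± 0.208 (SE), from 122 CPM to 174 CPM, with an edgeR adjusted p of 0.281. miR-382-5p had 0.38 ± 0.240 (SE), from 698 CPM to 915 CPM, with an edgeR adjusted p of 0.525. The 9 libraries of either diet overlapped for all 12 members and for all features, 0.0% being separate.

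In this average 7 of 12 members had a positive fold change, with a median of 0.15, and the median over all 168 features was -0.002. Among the positive members was miR-3957-5p, which passed the filter on low counts through its week 14 counts. CTRL week 7 held 0 counts of it. Without it the members' median would be the value of miR-493-3p, 0.025, nearer to that of all features. The other medians of the 12 members in this paragraph include it too. On library totals without TMM factors the median of all features moved by over 0.1 to 0.16, and 10 of 12 members were then positive with a median of 0.38. With DESeq2 the medians were 0.08 for members and 0.01 for all features, and with limma-voom 0.28 and -0.002, so the members' distance from all features depended on the tool. Without the 3 OBESE replicate 3 libraries, left out after their values were seen, 4 of 12 members were positive with a median of -0.27, against -0.05 for all 175 features tested. The log2 fold change was then -0.09 for miR-382-5p, 0.16 for miR-409-3p and 0.71 for miR-323c. Thus miR-382-5p changed sign, and miR-323c lost the least of its averaged difference in proportion.

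**Figure D4:**
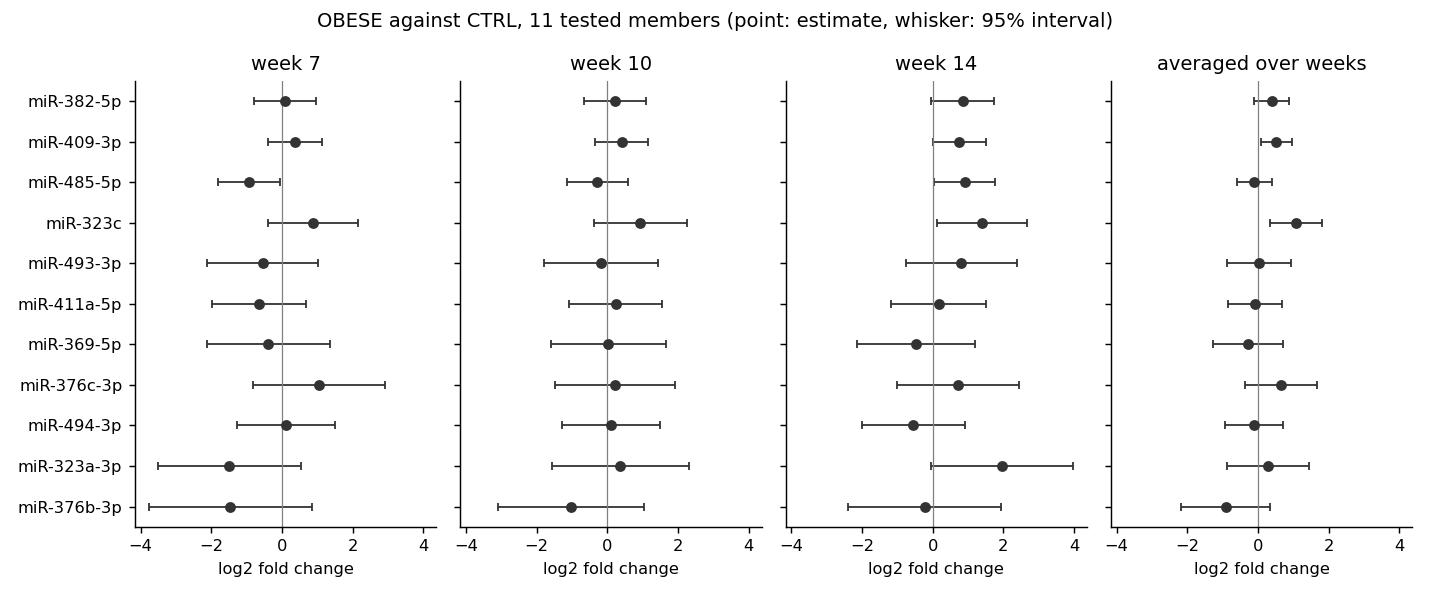
Log2 fold change of OBESE over CTRL (horizontal axes) with 95% intervals for 11 tested members at each week and averaged. miR-3957-5p is not drawn because CTRL week 7 held 0 counts of it. Averaged over weeks, the interval lies above 0 for miR-323c and miR-409-3p, and the intervals of less counted members are wider. The intervals treat libraries of different weeks as separate and are not adjusted for the number of features.

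At week 7, 0.0% of all features and no member passed the adjusted threshold. An unadjusted p under 0.05 was reached by 1 of 12 members, against 5.36% of all features. That member was miR-485-5p, at -0.93 ± 0.418 (SE) on the log2 scale, with a mean of 79.3 ± 22.8 CPM in CTRL against 41.7 ± 13.6 CPM in OBESE (SD, n = 3 each) and an edgeR adjusted p of 0.759. The diets were separate for 0 of 12 members, against 8.93% of all features. miR-323a-3p had -1.49 ± 0.960 (SE), edgeR adjusted p = 0.766, which became 0.28 without CTRL week 7 replicate 1. miR-323c had 0.88 ± 0.603 (SE), edgeR adjusted p = 0.766.

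At week 10, 0.0% of all features and no member passed the adjusted threshold, and 0 of 12 members, against 6.55% of all features, had an unadjusted p under 0.05. The diets were separate for 1 of 12 members, miR-323c, against 13.1% of all features. The log2 fold change of miR-323c was 0.93 ± 0.624 (SE), that of miR-409-3p 0.41 ± 0.358 (SE) and that of miR-376b-3p -1.04 ± 0.979 (SE). The edgeR adjusted p of miR-323c was 0.722. The member share was no higher than the background at this week.

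At week 14, 0.0% of all features and no member passed the adjusted threshold. Of the 12 members, 2 (miR-323c and miR-485-5p) had an unadjusted p under 0.05, against 7.74% of all features. This number was 3 with limma-voom, 4 with DESeq2 and 5 on library totals without TMM factors, and 0 without the 3 OBESE replicate 3 libraries. Their log2 fold changes were 1.40 ± 0.602 (SE) and 0.90 ± 0.415 (SE), and both had an edgeR adjusted p of 0.577. miR-485-5p had a mean of 39.1 ± 9.67 CPM in CTRL and 73.6 ± 14.4 CPM in OBESE (SD, n = 3 each). miR-409-3p had 0.75 ± 0.360 (SE), edgeR adjusted p = 0.577. The diets were separate for 2 of 12 members, miR-323a-3p and miR-485-5p, against 9.52% of all features. miR-323a-3p was at 2.40, 6.86 and 7.12 CPM in CTRL and at 14.5, 9.74 and 42.2 CPM in OBESE. These were 2, 6 and 5 counts in CTRL and 14, 6 and 22 counts in OBESE. Replicate 2 of both diets thus had the same count, and the separation in CPM is within counting error.

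Across the 12 members at week 14, 9 fold changes were positive, with a median of 0.77 against -0.01 for all features. miR-3957-5p, at 0.78, was among the positive members and lay next to the median of 0.77. It passed the filter on low counts through its week 14 counts, so that median rests partly on it. Without it the median would be the value of miR-409-3p, 0.75. Without the 3 OBESE replicate 3 libraries the median was 0.34, with 8 of 12 positive. This is a description of 12 members measured in the same libraries, with no test.

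Within CTRL, 0 of 12 members, against 0.0% of all features, passed the adjusted threshold between weeks 7 and 10. At an unadjusted p under 0.05 there were 0 members against 1.79% of all features, and 0 separate members against 4.76%. The smallest p values were those of miR-323c, miR-485-5p and miR-493-3p, with log2 fold changes of -1.03, -0.58 and -1.04 and an edgeR adjusted p of 0.947 each. Between weeks 7 and 14, again 0.0% of features and no member passed. An unadjusted p under 0.05 was reached by miR-485-5p and miR-3957-5p, against 3.57% of all features. miR-3957-5p passed the filter on low counts through its week 14 counts, so nothing is read from its p or its separation between weeks 7 and 14 in either diet. The 1 separate member was miR-485-5p, against 5.36% of all features, at -1.02 ± 0.418 (SE) on the log2 scale (edgeR adjusted p = 0.963). miR-323a-3p had -1.87 ± 0.974 (SE) and the same adjusted p, and this became 0.0015 without CTRL week 7 replicate 1.

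Within OBESE, 0.0% of features and no member passed the adjusted threshold between weeks 7 and 10, and 0 members against 4.17% of all features had an unadjusted p under 0.05. The weeks were separate for 1 member, miR-323c, against 16.1% of all features. Its log2 fold change was -0.97 ± 0.587 (SE), and those of miR-493-3p and miR-494-3p were -0.67 and -0.55. Between weeks 7 and 14, 0.0% of features and no member passed. Besides miR-3957-5p, 0 of the other 11 members had an unadjusted p under 0.05, against 7.74% of all features. Besides it, the weeks were separate for 1 member, miR-485-5p, against 13.7% of all features. On the log2 scale miR-485-5p was at 0.81 ± 0.416 (SE; edgeR adjusted p = 0.659), and miR-323a-3p had 1.59 ± 0.940 (SE).

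The mean of miR-485-5p at weeks 7, 10 and 14 was 79.3, 53.5 and 39.1 CPM in CTRL and 41.7, 43.7 and 73.6 CPM in OBESE. The interaction of diet with week (14 against 7) was 1.83 ± 0.589 (SE) for miR-485-5p, the smallest p of the 12 members, with an edgeR unadjusted p of 0.00636 and an adjusted p of 0.286. It was 3.46 ± 1.35 (SE) for miR-323a-3p, edgeR adjusted p = 0.41, and 0.77 ± 0.588 (SE) for miR-382-5p. At an unadjusted p under 0.05 there were these first 2 members, against 5.95% of all features, and 0.0% passed the adjusted threshold. The value of miR-485-5p stayed between 1.58 and 2.05 when each library was left out in turn, and that of miR-323a-3p between 1.61 and 4.03.

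miR-3957-5p, a miRNA named in sheep, was seen almost only at week 14. It had 0, 0 and 0 counts in CTRL and 1, 0 and 0 counts in OBESE at week 7, and 1, 2 and 0 counts in CTRL and 4, 0 and 0 counts in OBESE at week 10. At week 14 it had 52, 0 and 0 counts in CTRL and 80, 10 and 3 counts in OBESE. Week 14 thus held 145 of its 153 counts, and replicate 1 of the 2 diets at that week held 132. No fold change is given against CTRL week 7, where all libraries were at 0, and in CTRL every count of week 14 came from 1 library.

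Most pairs of members correlated positively within groups. For each pair of the 12 tested members, Pearson's r was taken over the 18 libraries of the log2 CPM (prior count 2) after subtracting the mean of each group. The points share library, depth and scaling factor, and libraries may share ewes, so r is a description. The median over the 66 member pairs was 0.286, with 53 positive, and over the 14028 pairs of all tested features it was -0.0000686. An r over 0.5 was seen for 24.2% of member pairs and 8.30% of all pairs. On library totals without TMM factors the medians were 0.218 for members and 0.172 for all pairs, so the distance between them depended on the scaling.

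The closest pairs were miR-323c with miR-382-5p (r = 0.79, Spearman's rho = 0.62), miR-323a-3p with miR-411a-5p (r = 0.76, rho = 0.71) and miR-323c with miR-493-3p (r = 0.75, rho = 0.80). Without the pair of libraries with low TMM factors these were 0.73, 0.64 and 0.64. miR-323c and miR-493-3p lie at opposite ends of the member genes, 36 steps apart in the order of the 37 genes. Pairs of 5 or fewer gene steps apart (14 pairs) had a median r of 0.165, and pairs farther apart (52 pairs) 0.308. Of the 2 sets, the closer pairs had the lower median. They include miR-3957-5p with miR-323c (-0.46), miR-409-3p (-0.35), miR-485-5p (-0.22) and miR-369-5p (0.06), and its other pairs are among those farther apart. As the values of miR-3957-5p rest on few libraries, nothing is read from the difference of the medians.

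miR-3957-5p had the lowest correlations with the others, but it was seen in 8 of 18 libraries and had 132 of its 153 counts in 2 of them, so these values rest largely on those 2 libraries. Its r was -0.46 with miR-323c, -0.46 with miR-411a-5p and -0.35 with miR-409-3p, the 3 lowest of the 66. MIR409 comes next after MIR3957 in the order of member genes. miR-494-3p also stood apart, with an r of 0.09 with the mean of the other members, whereas miR-323c had 0.77 and miR-493-3p and miR-382-5p had 0.74 and 0.73. The correlation of a member with the log2 TMM factor ran from -0.62 (miR-323a-3p) to 0.41 (miR-3957-5p), and its part in the joint variation was not tested. For miR-382-5p the coefficient of variation from counting was 4.16% against 43.8% within groups, and for miR-494-3p it was 30.5% against 47.2%.

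**Figure D5:**
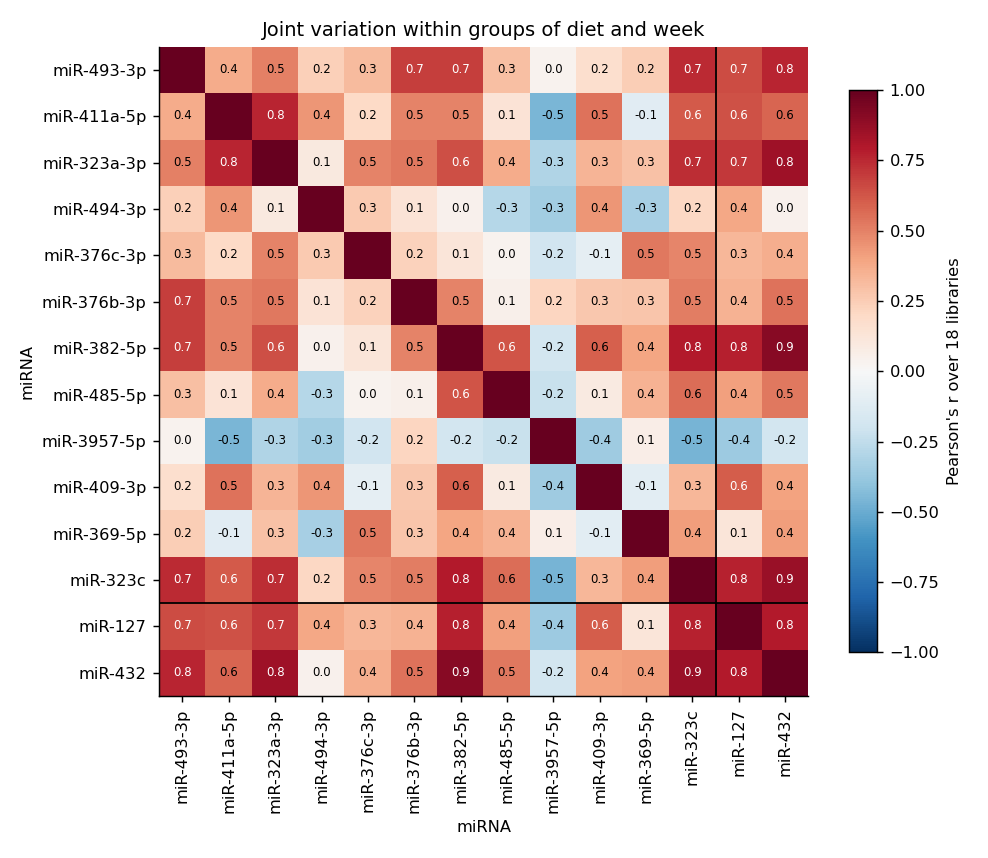
Pearson's r between deviations from group means over 18 libraries for the 12 tested members in gene order and, beyond the black lines, miR-127 and miR-432 of the PEG11 antisense miRNAs. miR-382-5p, miR-323c, miR-493-3p and miR-323a-3p form warm rows and columns, and the row of miR-3957-5p is mostly blue.

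Of all 167 other features, the nearest to miR-382-5p was miR-432, from the PEG11 antisense miRNAs of the same region, with r = 0.91 and rho = 0.88. It was followed by miR-323c with r = 0.79 and by miR-127, which is complementary to the PEG11 (RTL1) message, with r = 0.78. The features nearest to miR-409-3p were unnamed miRNA 4 (r = 0.72), 46 (r = 0.64) and 45 (r = 0.64), and its highest member, miR-382-5p, ranked 6th. The features nearest to miR-485-5p were unnamed miRNA 102 (r = 0.72), 229 (r = 0.64) and 223 (r = 0.64), followed by miR-382-5p (r = 0.63). The unnamed miRNAs carry running numbers and no sequence in the table.

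The PEG11 antisense miRNAs were 7 features, of which miR-127 and miR-432 were tested. Their 24 pairs with the members had a median r of 0.535, and 22 were positive. Their log2 fold changes between diets, averaged over weeks, were 0.35 ± 0.254 (SE) for miR-127 and 0.21 ± 0.340 (SE) for miR-432, and 0 of the 2 were called. Their levels were also high in OBESE replicate 3, with miR-432 at 761, 665 and 729 CPM there against 265 to 321 CPM in the other OBESE libraries. The highest miR-432 level of the series, 910 CPM, was in CTRL week 7 replicate 1. There miR-127 was at 155 CPM, against 151 CPM in OBESE week 10 replicate 3.

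Replicate numbers went with member levels in OBESE. For 6 of the 12 tested members, replicate 3 was the highest OBESE library at all 3 weeks: miR-323a-3p, miR-323c, miR-382-5p, miR-409-3p, miR-485-5p and miR-493-3p. The same held for 19 of the 168 features. Replicate number within diet accounted for 86.5% of the within-group variance of miR-382-5p, the 4th highest of the 168, 81.9% for miR-493-3p and 80.7% for miR-409-3p. The median was 46.6% over the 12 members and 46.3% over all features, so a high variance share held for some members and not for the members as a set. This share is another measure than which OBESE library was the highest. Without the 3 OBESE replicate 3 libraries the median r of the member pairs was 0.303, against -0.005 for all pairs.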

How the data were processed

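Plasma small RNA was made into libraries with a QIAseq kit that tags molecules and read on an AVITI instrument, per the labels' protocols. Bowtie 1.3.1, cutadapt 4.9 and DESeq2 1.42 are listed, with no role, per the submitters' processing notes. Build, annotation and the assignment of reads matching several miRNAs were not given in the sources used here. Raw counts per miRNA were what the authors deposited, and whether these are molecules or reads is not stated. The series table and the library files differed in 0 values, and 0 columns were unmapped.

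Counts were analysed with edgeR 4.0.16 in R 4.3.3 (filterByExpr by group, minimum count 10 and minimum total 15, TMM, quasi-likelihood F test, 1 model of 6 groups, 12 residual degrees of freedom). CPM, shares, arm shares and correlations were computed here. An SE equals the size of the log2 difference over the root of F. The 12 tested members passed a filter that leaves out low counts. Named members are the 10 with most counts and, in each comparison, those with an unadjusted p under 0.05 or otherwise the 3 smallest p. Arm use was tested for hairpins with 10 counts in every library, and the 3 highest and 3 lowest pairs and the 3 nearest features were named for joint variation. Alternatives were DESeq2 1.42.0, limma 3.58.1 (voom), other scalings, no filter, replicate blocks and libraries left out. The edgeR step was tested on simulated data. The members and lists were chosen with earlier results of these data known.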

Additional observations from a re-analysis of the deposited data

How the results depend on the processing

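Over the 9 edgeR comparisons, no member was called under any alternative that was run. The count of called features, 0 in every comparison, became 2 with DESeq2, which was run on all 364 features, and 4 with no filter on low counts in edgeR, for the diet average. The tool and the filter thus differed together in the DESeq2 count. With each library left out in turn it ranged from 0 to 2 for the diet average and from 0 to 1 for the diet difference at week 14. With the replicate number as a replicate block across both diets, 0 features were called in each of the 9 comparisons. With a replicate block within each diet, which leaves no diet difference to test, 0 were called in the 4 week comparisons and the interaction. Libraries of 1 diet with the same number correlated with a median r of 0.347 (from -0.0245 to 0.692). Among libraries of the same diet at other weeks, 17 of 18 matched best one of their own number. Between the diets the median r was 0.104 for the same number and -0.0435 for other numbers. These values are a hint from the data and not from the design. Named members changed sign as follows. miR-382-5p, averaged over weeks, was at -0.091 without the 3 OBESE replicate 3 libraries, an alternative chosen after seeing the data. miR-323a-3p at week 7 was at 0.27 without the pair of libraries with low TMM factors and ranged from -2.06 to 0.28 with each library left out. miR-376b-3p at week 10 was at 0.087 with limma-voom. Between weeks 7 and 14 in CTRL, miR-323a-3p ranged from -2.44 to 0.0015 with each library left out. The cause was not tested. For arm shares between diets, 1 hairpin was called, the non-member miR-30a, and 0 to 2 with each library left out. The median r of member pairs was 0.315 by Spearman's rho, 0.218 without TMM factors, 0.213 with no group mean removed and from 0.236 to 0.329 with each library left out. The median 95% half-width of the averaged diet difference was 0.86 for tested members and 0.53 for all tested features, on the log2 scale. Depth kept 40 members from being tested. For each of the 12 tested members the counting error was smaller than the spread within groups, but that spread includes it. The comparison thus cannot show that depth did not limit the tested members.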

Other observations

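Low counts had an uneven spread. Among the 936 member values, 53 were 1, 74 were 2 and 56 were 3. Among the 6552 values of all features, 345 were 1, 437 were 2 and 286 were 3. More values of 2 than of 1 were seen in 12 of 18 libraries for the members and in 15 of 18 for all features. Of the 11 members seen in 1 library, miR-382-3p was among those listed with 2 counts there.

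Several scarce members had their counts in few libraries. miR-380-3p had 19 of its 66 counts in OBESE week 7 replicate 3 and 14 in OBESE week 10 replicate 1. miR-299-3p had 14 of its 66 counts in OBESE week 7 replicate 3 and 16 in OBESE week 10 replicate 3. miR-3959-5p had 15 of its 69 counts in OBESE week 10 replicate 1. These members were not tested. miR-379-5p, which names one of the clusters of the region, was seen in 17 of 18 libraries and never exceeded 10 counts.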
